A study of Rattus norvegicus with 12 samples.

Results

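The genes studied here are the water channels Aqp1, Aqp2, Aqp3, Aqp4, Aqp6 and Aqp7 and the vasopressin V2 receptor gene Avpr2, chosen as every probe set whose single gene symbol in the platform annotation is one of these 7. They are read by 11 of the 31042 probe sets, and are 7 of the 14217 genes named there. RNA of rat kidney was measured on 12 Affymetrix arrays. There were 2 arrays of recombined tissue, 3 of kidneys of embryonic day 13 (E13), 4 of embryonic day 18 (E18) and 3 of kidneys taken in week 4 after birth (Wk4). The recombined tissue was made of unbranched UBs formed in vitro and of MM and spent 6 days in culture, whereas the embryonic kidneys went straight from dissection to processing. UB and MM are the usual abbreviations of the ureteric bud, the source of the collecting ducts, and the metanephric mesenchyme, the source of the nephrons. The labels give no strain, sex, litter or animal number and no treatment, so p-values reflect only how far these samples spread, and that spread may be technical. The design compares the recombined tissue with the 3 stages and takes a 3-fold difference as its measure of change.

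Aquaporins are membrane channels through which water, and in some members glycerol, crosses cells. In the principal cells of the collecting duct, vasopressin binds the V2 receptor, cAMP rises, and vesicles that carry Aqp2 fuse with the apical membrane, while Aqp3 and Aqp4 let the water out on the basolateral side. Aqp1 is the constitutive water channel of the proximal tubule and thin descending limb and is also found in endothelium and red cells, Aqp7 carries water and glycerol in the proximal straight tubule, and Aqp6 lies in vesicles of intercalated cells.

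The annotation holds neighbours among these genes. In RefSeq's rat assembly GRCr8, Aqp2, Aqp5 and Aqp6 are consecutive protein-coding genes on chromosome 7, and Aqp7 and Aqp3 are consecutive on chromosome 5. RefSeq promoter windows, from 250 bases before to 50 bases after the start site, were matched for 6 of the 7 genes. Those of Aqp2 (chr7:132590036-132590335, plus strand), Aqp3 (chr5:61040634-61040933, minus strand) and Aqp1 (chr4:85812534-85812833, plus strand) are shown, because Aqp2 and Aqp3 rose at both stage steps and Aqp1 mainly at the later one. Capitals mark matches, on either strand, to 4 motifs: GACGTCA is the core of a cAMP response element, AGATAA (which reads TTATCT on the other strand) the motif of GATA factors, TATAAA the box bound by TBP, and CACGTG an E-box.
Aqp2: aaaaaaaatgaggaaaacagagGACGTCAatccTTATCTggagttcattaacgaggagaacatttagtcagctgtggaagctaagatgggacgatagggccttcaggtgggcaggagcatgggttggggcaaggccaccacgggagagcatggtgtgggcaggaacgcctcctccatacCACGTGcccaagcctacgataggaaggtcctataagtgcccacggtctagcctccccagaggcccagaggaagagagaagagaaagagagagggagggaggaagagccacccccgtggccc
Aqp3: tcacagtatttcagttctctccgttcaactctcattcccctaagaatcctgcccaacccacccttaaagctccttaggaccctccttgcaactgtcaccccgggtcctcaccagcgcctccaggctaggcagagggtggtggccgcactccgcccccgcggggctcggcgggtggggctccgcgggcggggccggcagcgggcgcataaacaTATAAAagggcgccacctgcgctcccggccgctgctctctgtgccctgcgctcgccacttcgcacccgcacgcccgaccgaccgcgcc
Aqp1: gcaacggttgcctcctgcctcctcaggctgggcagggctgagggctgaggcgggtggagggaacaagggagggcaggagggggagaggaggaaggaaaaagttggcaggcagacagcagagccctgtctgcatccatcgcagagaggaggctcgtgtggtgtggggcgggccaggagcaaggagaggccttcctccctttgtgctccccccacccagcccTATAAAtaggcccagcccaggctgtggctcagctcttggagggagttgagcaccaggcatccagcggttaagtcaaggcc

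Positions are those of a match's first base relative to the start site. The Aqp2 window held GACGTCA at -228, TTATCT at -217 and CACGTG at -71. In the windows of Aqp3 and Aqp1 the match was TATAAA, at -38 and -30. Avpr2 had the reverse of this motif, TTTATA, at -45, Aqp6 had CACGTG at -95, and the windows of Aqp4 had no match. No matches overlapped each other. Of 33469 rat promoter windows, 3.22% held GACGTCA, 11.6% AGATAA, 14.2% TATAAA and 6.42% CACGTG, in either orientation. A match of letters is a description and shows no binding.

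A level below is the deposited signal of a probe set, and is compared only with that probe set on other arrays. Differences are of log2(signal + 271), ± SE from limma, with Benjamini-Hochberg adjusted p over 22599 probe sets, and a gene is called when its adjusted p is under 0.05 and its difference at least 3-fold. Where a gene has more than 1 probe set, that with the highest mean log2 value among those past the filter on low values stands for it. The filter, a signal above the array's 40th percentile (503 to 671) on at least 2 arrays, passed 6 of the 7 genes and 9 of the 11 probe sets. It removed Aqp6 and 1 probe set of Aqp4. In whole tissue, fewer cells of a type and less RNA per cell cannot be told apart.

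Across the stages, Aqp2, the apical water channel of principal cells, rose at both steps. Its signal was 45.1, 43.9 and 43.0 at E13, then 8106, 1619.7, 6967 and 6619.7 at E18, and 30929.8, 34045 and 30065 at Wk4. The E13 arrays lay far below the 40th percentile, and the stages did not overlap. Aqp2 rose by 4.07 ± 0.37 at E18 against E13 (limma adjusted p = 2.19e-06) and by 2.59 ± 0.37 at Wk4 against E18 (limma adjusted p = 3.19e-05). Its E18 mean was 18.4% of its Wk4 mean. E18 replicate 2 stood apart, at 22.4% of the mean of the other 3 E18 arrays, and without it these differences were 4.57 and 2.09. The same array also stood apart by 2 of 3 sex-linked genes. Its signal of Eif2s3y, a Y-linked gene, was 4.9, against 12750.5, 13467 and 19792 on the other E18 arrays. Xist, the RNA of the inactive X, was at 52818 there and at 55.9, 32.1 and 19.0 on the others. At Wk4 Xist was low on each array (23.5, 29.7 and 55.8), and at E13 and in recombined tissue both genes were high. The brighter probe set annotated to Uty, another Y-linked gene, did not follow Eif2s3y, with 6875 on E18 replicate 2 and 4522, 5150.0 and 5874 on the other E18 arrays. The part of sex in the Aqp2 value was not tested. Aqp2 was called at both steps with and without that array.

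Aqp3, the basolateral water and glycerol channel of the same cells, followed Aqp2 at a smaller size. Its signal was 639.8, 363 and 501 at E13, 5646, 3952, 3971 and 2814 at E18, and 13474, 15014 and 13351 at Wk4. The 3 stages were fully separate. Aqp3 rose by 2.48 ± 0.19 at E18 against E13 (limma adjusted p = 4.77e-07) and by 1.74 ± 0.19 at Wk4 against E18 (limma adjusted p = 2.35e-06), with its E18 mean at 29.4% of that at Wk4. On E18 replicate 2 Aqp3 stood at 95.4% of the mean of the other 3 arrays.

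Aqp4, the other basolateral water channel, changed mainly at the first step. Its brightest probe set had 72.5, 272 and 8.0 at E13, 2622, 4126, 2668 and 3220.2 at E18, and 4279, 8172 and 4574 at Wk4. All E13 arrays were below the 40th percentile, and every Wk4 array was above every E18 array, the nearest pair being 4279 and 4126. Aqp4 rose by 3.18 ± 0.26 at E18 against E13 (limma adjusted p = 7.11e-07). At Wk4 against E18 its difference was 0.76 ± 0.26 (limma adjusted p = 0.0218), under 3-fold and so not called, and 0.47 without Wk4 replicate 2. The E18 mean was 55.7% of the Wk4 mean. The other 2 probe sets of Aqp4 did not show this. One had 27.0 to 249 at E13, 113 to 579.9 at E18 and 431 to 1206 at Wk4 and was called at neither step. The other, removed by the filter, stayed between 28.6 and 501 on all 12 arrays. With the mean of the gene's probe sets, the difference of Aqp4 at E18 against E13 was 1.30 and was no longer called.

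Avpr2, the receptor through which vasopressin acts on these channels, was higher at each stage than at the one before, by less than 3-fold a step. The signal of its brighter probe set was 472, 246 and 312 at E13, 873, 1236, 737 and 688 at E18, and 2734, 2400.2 and 2596 at Wk4. These ranges did not overlap. The difference was 0.90 ± 0.21 at E18 against E13 (limma adjusted p = 0.0075) and 1.32 ± 0.21 at Wk4 against E18 (limma adjusted p = 9.63e-05), neither of them called. Over both steps, at Wk4 against E13, Avpr2 rose by 2.23 ± 0.23 (limma adjusted p = 7.81e-07). E18 replicate 2, the lowest array of its stage for Aqp2, was the highest for Avpr2, at 161% of the mean of the others. The dimmer Avpr2 probe set had 198 to 432 at E13, 237 to 356 at E18 and 545 to 833 at Wk4. Its difference at Wk4 against E13 was 0.62 ± 0.23 (limma adjusted p = 0.0302), under 3-fold, and with the mean of both probe sets (1.42) Avpr2 was not called there.

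Aqp6, the channel of intercalated cell vesicles, was not above the 40th percentile on any array. Its signal was 352.5, 417 and 211 at E13, 281, 380.1, 323 and 309 at E18, and 269.5, 335 and 279.6 at Wk4, and the 3 stages overlapped. In a fit without the filter its differences were 0.00 ± 0.18 at E18 against E13 (limma adjusted p = 0.994) and -0.07 ± 0.18 at Wk4 against E18 (limma adjusted p = 0.796). Of 8 intercalated cell genes tested, 4 rose at E18 against E13 and 6 at Wk4 against E18. Over all probe sets tested, 1.93% and 5.76% were called higher at these steps. The median differences of the 8 genes were 1.68 and 2.26. The proton pump subunit gene Atp6v0a4, an example not chosen by size of change, rose by 2.26 ± 0.13 and 3.40 ± 0.13.

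Aqp1, the water channel of the proximal tubule, changed mainly after E18. The probe set that stands for it had 973, 984 and 880.3 at E13, 1992.5, 2247, 2171.5 and 1272 at E18, and 33764, 32349.8 and 35754 at Wk4. The 3 stages did not overlap, and the Wk4 arrays lay far above the others. The difference was 0.82 ± 0.22 at E18 against E13 (limma adjusted p = 0.0154), under 3-fold, and Aqp1 rose by 3.99 ± 0.22 at Wk4 against E18 (limma adjusted p = 1.62e-09). At E18 its mean was 5.66% of that at Wk4. The second Aqp1 probe set differed at the first step. It had 513, 116 and 246 at E13, 2463, 1639.8, 1849.5 and 1552 at E18, and 58454, 54521 and 60363 at Wk4, and was called at E18 against E13 (1.97 ± 0.23, limma adjusted p = 2.53e-05) as well as at Wk4 against E18 (4.77 ± 0.23, limma adjusted p = 4.77e-10). Endothelium and red cells also carry Aqp1. The summed signal of 10 endothelial markers was 33387 to 46010.0 at E13, 45285 to 58945 at E18 and 71741 to 80983 at Wk4. That of 10 erythroid markers was 244440.0 to 299393, 205021 to 237418 and 94022 to 126473 at these stages. The sum of 16 proximal tubule markers was 2603 to 3877 at E13, 49453 to 68056 at E18 and 1124516 to 1256401 at Wk4. Their part in the Aqp1 signal was not tested.

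Aqp7, the water and glycerol channel of the proximal straight tubule, was called at the second step and not at the first. Its signal was 443, 507 and 465 at E13, 735, 396, 630.1 and 563 at E18, and 20975.5, 20665 and 23577 at Wk4. E13 and E18 overlapped, and Wk4 stood apart from both. The difference was 0.18 ± 0.20 at E18 against E13 (limma adjusted p = 0.582), and Aqp7 rose by 4.70 ± 0.20 at Wk4 against E18 (limma adjusted p = 1.53e-10). Its E18 mean was 2.67% of its Wk4 mean. Adipocytes also express Aqp7, and the summed signal of 8 adipocyte markers was 1795 to 2629 at E13, 4621 to 6942 at E18 and 14135 to 21023 at Wk4. In recombined tissue, where Aqp7 had 303 and 785, the sum was 49913 and 32829, of which Lpl, a lipase gene also active outside fat, made 36106 and 22954. Without Lpl the sum was 13807 and 9874, against 2495 to 5063 at E18 and 9497 to 14893 at Wk4. In recombined tissue most of this remainder came from Fabp4 and Cfd. Against E18, 3 of 7 adipocyte markers tested were called higher in recombined tissue and 0 lower, where 995 of 22599 probe sets were called either way. Fabp4 had 9563 and 4441 in recombined tissue (1393 to 3635 at E18), and Cfd 3388 and 3688 (255 to 385 at E18). Cidec, a lipid droplet gene of adipocytes, had 13.7 and 32.3 in recombined tissue, against 3451 to 5085 at Wk4. Adipoq had 190 and 574 in recombined tissue, against 31.0 to 188 at E18 and 636 to 1180 at Wk4. Plin1 had 48.8 and 454, against 35.2 to 280 at E18 and 513 to 975 at Wk4. The part of adipocytes in the Aqp7 signal was not tested.

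**Figure D1:**
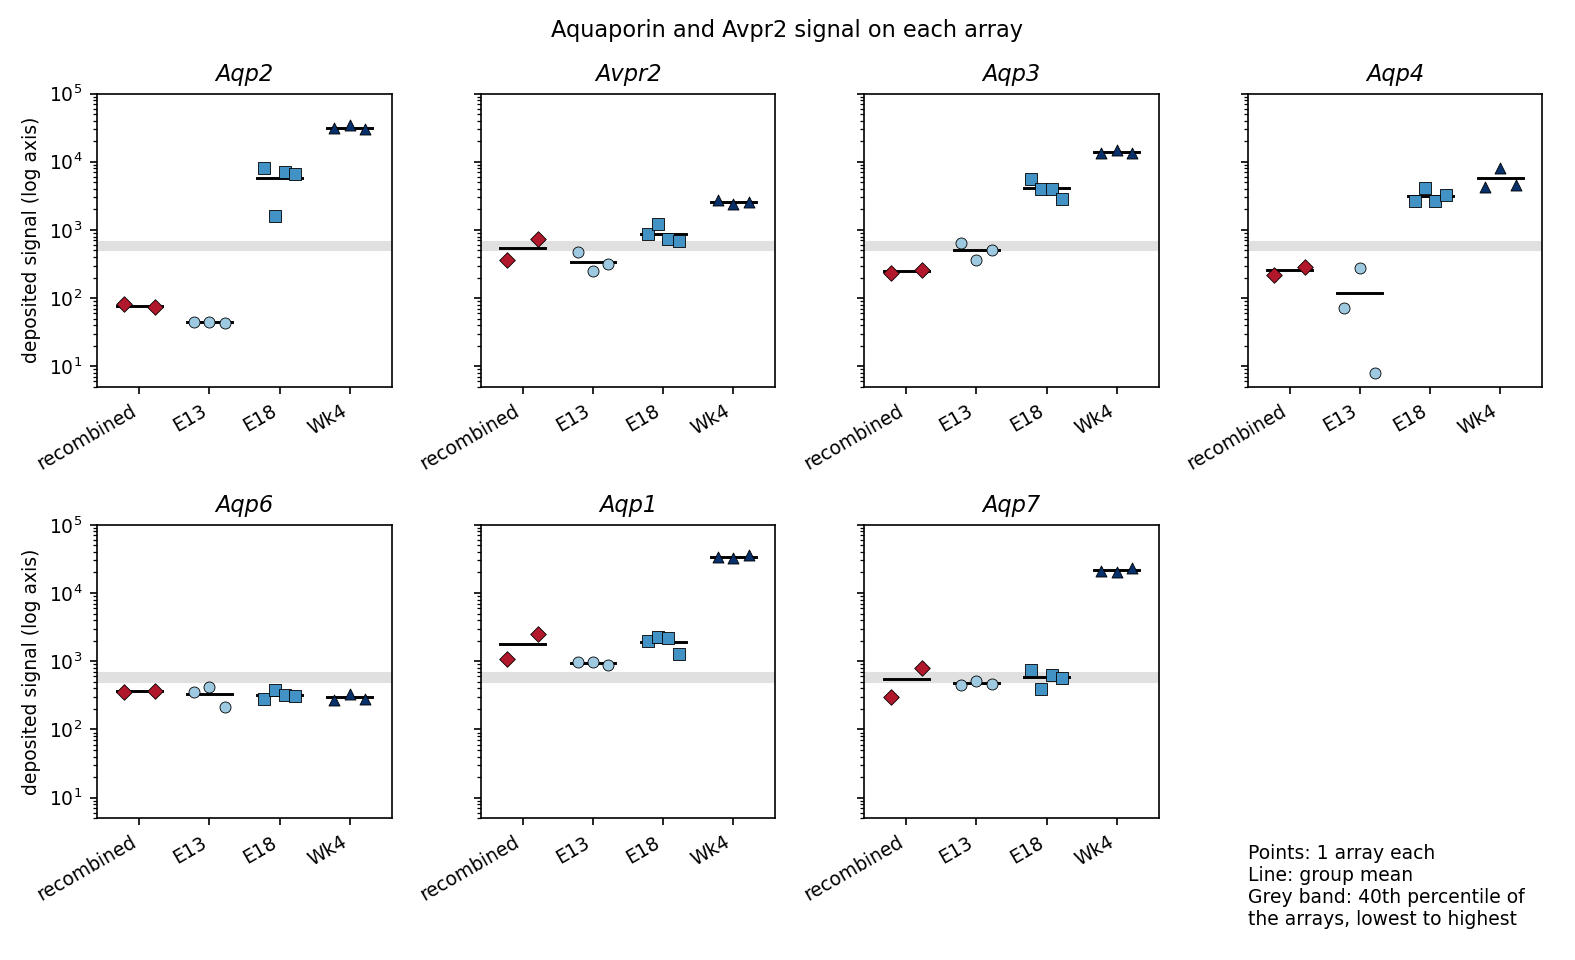
Deposited signal (log axis) of the probe set that stands for each gene, with 1 point per array in recombined tissue and at E13, E18 and Wk4, the group mean as a line, and the 40th percentile of the arrays as a grey band. Aqp2, Aqp4 and Avpr2 lie under the band at E13, and these and Aqp3 lie above it at E18. Aqp1 and Aqp7 reach their high level at Wk4. E18 replicate 2 is the low Aqp2 point at 1619.7, and Aqp6 stays under the band.

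**Figure D2:**
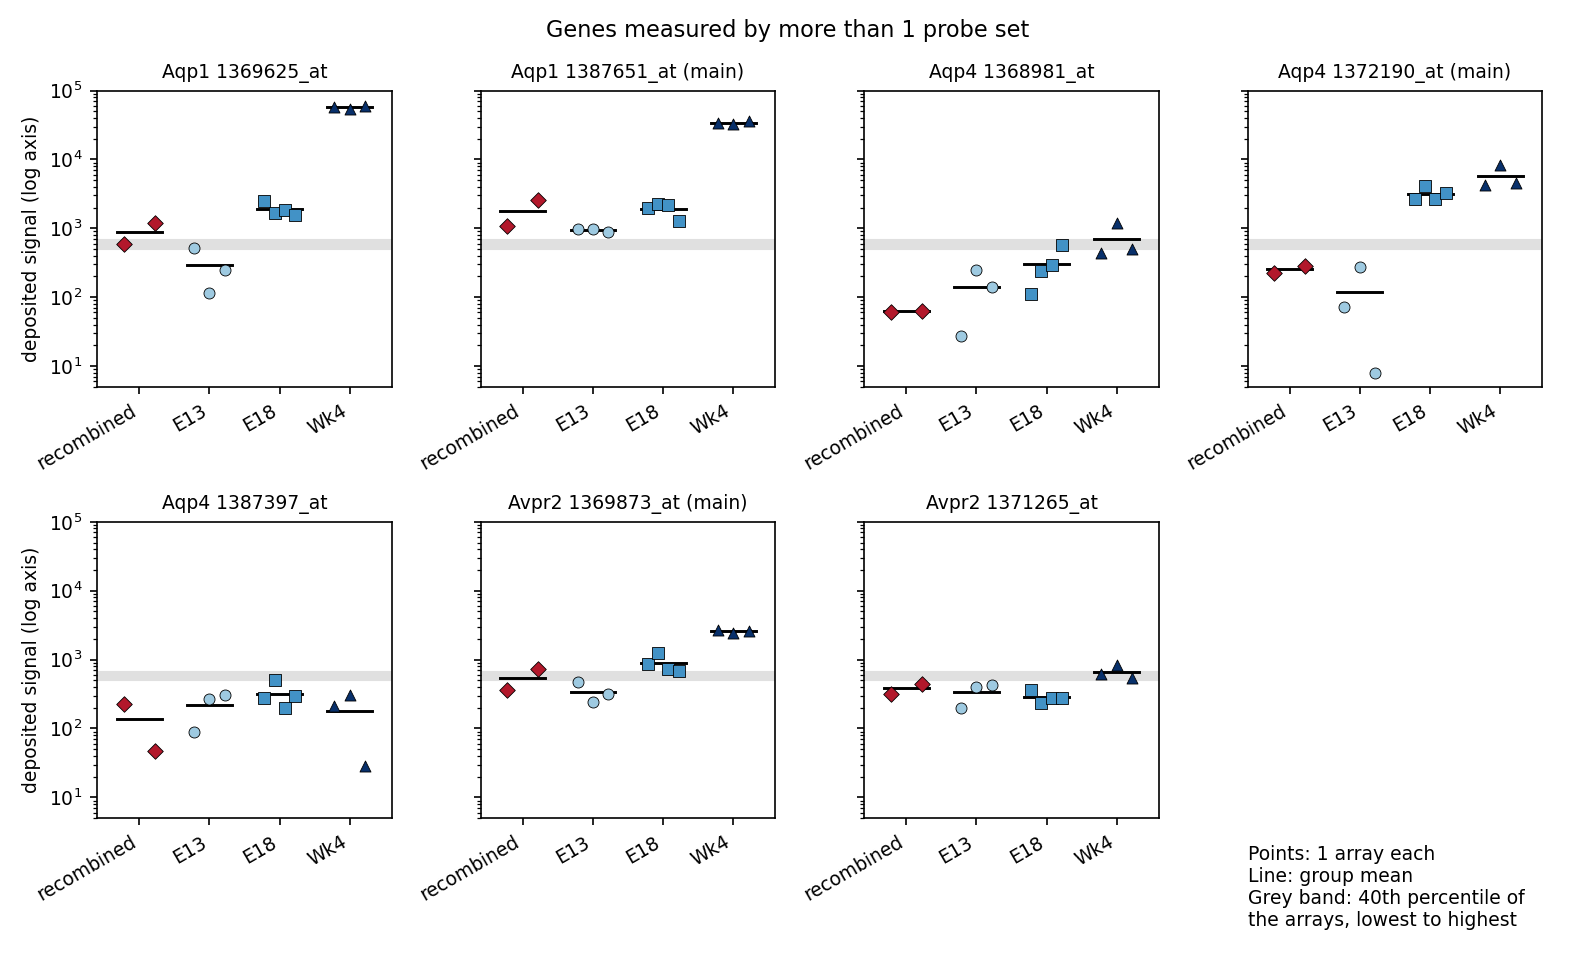
Deposited signal (log axis) on each array for the 7 probe sets of Aqp1, Aqp4 and Avpr2, the genes with more than 1 probe set, with the group mean as a line and the 40th percentile as a grey band. Both Aqp1 probe sets climb at Wk4, whereas only 1 of 3 for Aqp4 lies above the band at E18. The dimmer Avpr2 probe set lies under the band except at Wk4, where it is near it.

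Counted together, 3 of the 7 genes (Aqp2, Aqp3 and Aqp4) were called higher at E18 against E13, where 1.93% of all probe sets tested were. Their median difference was 0.90, against -0.02 for all probe sets. At Wk4 against E18, 4 of the 7 (Aqp1, Aqp2, Aqp3 and Aqp7) were called higher, where 5.76% of probe sets were, with a median of 1.74 against -0.12. Over the whole interval, Wk4 against E13, 6 of the 7 were called higher, all but Aqp6, with 9.39% of probe sets as the background and a median of 4.22 against -0.12. These comparisons share arrays. The embryonic arrays fell into 2 sets by their residuals, E13 replicate 1 with E18 replicates 1 to 3, and E13 replicates 2 and 3 with E18 replicate 4. Within the sets the differences of Aqp2, Aqp3 and Aqp4 were 3.94, 2.38 and 3.28 in the first, which has 1 E13 array, and 4.45, 2.14 and 3.17 in the other, which has 1 E18 array. With 1 array on a side and sets drawn from the same data, these are given as values only.

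Whether a gene rose more at the first or at the second step was tested as the difference of both differences, (E18 minus E13) minus (Wk4 minus E18). Of the 7 genes, 3 were called, 1 higher and 2 lower, where 6.16% of probe sets were called higher and 4.38% lower. Aqp4 changed more up to E18 (2.42 ± 0.43, limma adjusted p = 0.000678). Aqp1 (-3.17 ± 0.37, limma adjusted p = 1.66e-05) and Aqp7 (-4.52 ± 0.34, limma adjusted p = 3.01e-07) changed more after it. The result for Aqp4 rests on its brightest probe set, since with the mean of its probe sets the value was 0.94 and was not called. For Aqp2 the value was 1.48 ± 0.63 (limma adjusted p = 0.0889), but 2.48 and called without E18 replicate 2, and 4.15 and called with no pseudocount. Aqp3 (0.74 ± 0.32, limma adjusted p = 0.103) and Avpr2 (-0.42 ± 0.36, limma adjusted p = 0.418) were not called.

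In recombined tissue, after 6 days of culture, Aqp2 was below the 25th percentile of the arrays (239 to 344), at 81.8 and 73.4. These values lie above those of the 3 E13 arrays (43.0 to 45.1) and below those of all E18 and Wk4 arrays. Aqp2 was lower than at E18 by a difference of -3.93 ± 0.42 (limma adjusted p = 9.65e-06) and lower than at Wk4 by -6.52 ± 0.44 (limma adjusted p = 1.78e-08). Against E13 the difference was 0.15 ± 0.44 (limma adjusted p = 0.842), and its sign turned with median centring.

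Aqp3 had 236 and 257 in recombined tissue, below every array of E13 (363 to 639.8), E18 and Wk4. It was lower by -3.04 ± 0.22 against E18 (limma adjusted p = 2.49e-07) and -4.78 ± 0.23 against Wk4 (limma adjusted p = 4.69e-10). The difference from E13 was -0.56 ± 0.23 (limma adjusted p = 0.0788) and was not called. Aqp4 had 221 and 287.5, within the E13 range of 8.0 to 272 for 1 array and just above it for the other. It was lower by -2.69 ± 0.29 against E18 (limma adjusted p = 1.09e-05), or -1.32 and not called with the mean of its probe sets, and by -3.45 ± 0.31 against Wk4 (limma adjusted p = 3.12e-07).

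Avpr2 had 361 in replicate 1 and 728 in replicate 2 of recombined tissue, a span that holds the highest E13 value (472) and the lowest E18 value (688). Its differences were 0.39 ± 0.25 against E13 (limma adjusted p = 0.282) and -0.52 ± 0.24 against E18 (limma adjusted p = 0.13), neither called. Against Wk4 it was lower by -1.84 ± 0.25 (limma adjusted p = 2.62e-05), or -1.51 and not called without recombined replicate 1. The dimmer probe set differed by -0.51 ± 0.26 there (limma adjusted p = 0.106), and the mean of both (-1.18) was not called. Aqp6 had 356 and 365 and was below the 40th percentile here too.

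Aqp1 and Aqp7 were likewise brighter on replicate 2, by 2.36 and 2.59 times, and Avpr2 by 2.02 times. Aqp1 had 1076 and 2538.5 in recombined tissue, with E18 arrays in between (1272 to 2247). The difference was 0.68 ± 0.26 against E13 (limma adjusted p = 0.0633) and -0.15 ± 0.25 against E18 (limma adjusted p = 0.713), or 0.38 against E18 without recombined replicate 1. The second Aqp1 probe set had 601 and 1183, below every E18 array and above every E13 array. Its differences were 1.06 ± 0.28 against E13 (limma adjusted p = 0.00888) and -0.91 ± 0.26 against E18 (limma adjusted p = 0.0175), both under 3-fold. Aqp7 had 303 and 785, around the embryonic arrays (396 to 735 over E13 and E18). Its differences were 0.07 ± 0.24 against E13 (limma adjusted p = 0.864) and -0.12 ± 0.23 against E18 (limma adjusted p = 0.755). Both genes were lower than at Wk4, Aqp1 by -4.14 ± 0.26 (limma adjusted p = 8.26e-09) and Aqp7 by -4.82 ± 0.24 (limma adjusted p = 6.14e-10). Summed endothelial markers were 9746 on replicate 1 and 16469 on replicate 2, under the lowest E13 sum of 33387. Erythroid markers summed to 9234 and 11019, against 244440.0 or more at E13. Proximal tubule markers summed to 5027 and 6471, against 2603 to 3877 at E13, and without Slc13a3, the 1 of 16 called there, to 3460 and 5509, against 2570 to 3850.

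Against E13, limma called 0 of the 7 genes in recombined tissue, where 4.86% of probe sets were called. By adjusted p alone 0 of the 7 passed, against 7015 of 22599 probe sets. Against E18, 3 of the 7 (Aqp2, Aqp3 and Aqp4) were called lower, where 1.67% of probe sets were. The median difference of the 7 was -0.52, against 0.00 for all probe sets. In the same comparison 995 of 22599 probe sets were called either way, 62.1% of them higher, and markers of other cell types differed. Leukocyte markers summed to 248793 and 137774 in recombined tissue, against 18327 to 24481 at E18, and 10 of 12 were called higher (median 2.76). Of 7 skeletal muscle markers tested, 3 were called higher (median 1.51). Their part in the lower aquaporin signals was not tested. Against Wk4, 6 of the 7 were called lower, all but Aqp6, with 7.32% of probe sets as the background and a median of -4.14 against 0.19.

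**Figure D3:**
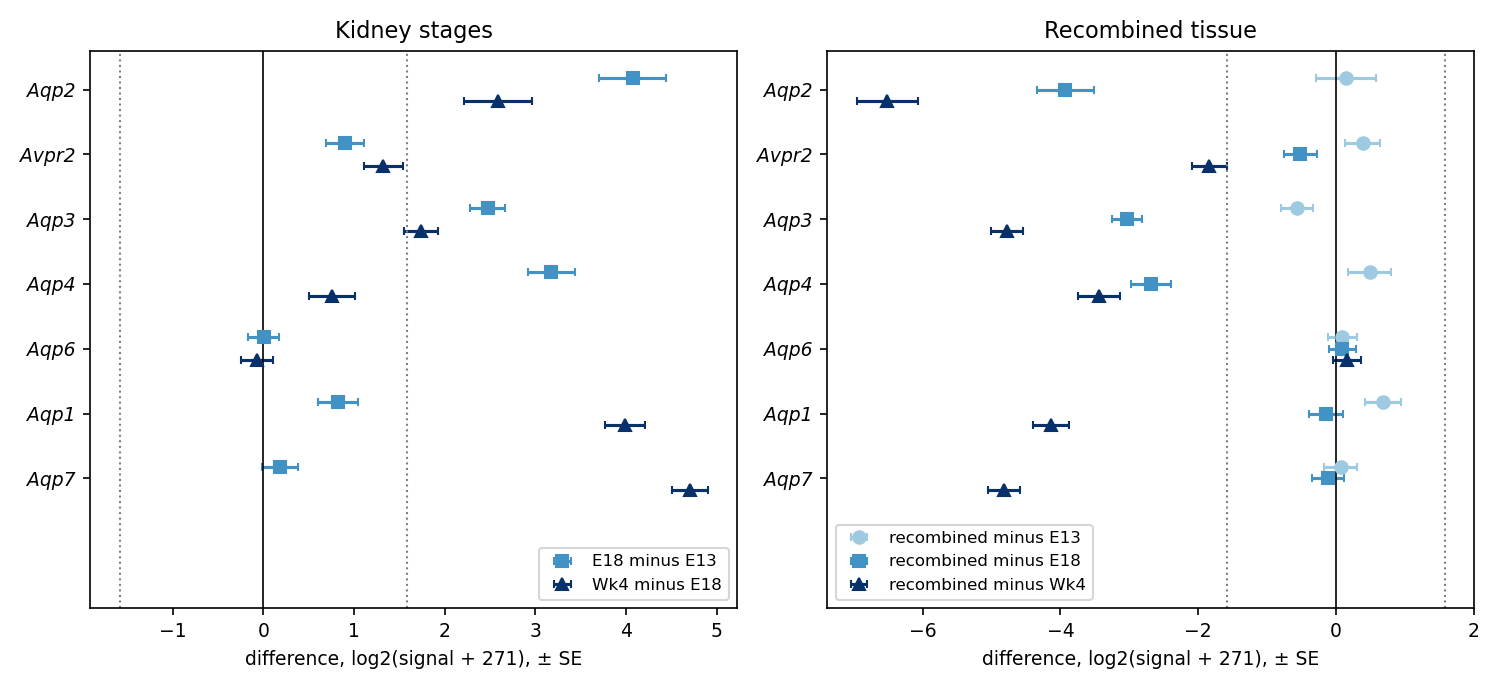
Differences of the 7 genes on the log2(signal + 271) scale, ± SE, between kidney stages (left: E18 minus E13 and Wk4 minus E18) and of recombined tissue from each stage (right), with dotted lines at 3-fold. On the left, Aqp4 lies past 3-fold at the first step and Aqp1 and Aqp7 at the second, with Aqp2 and Aqp3 past it at both. On the right, all 7 lie within 3-fold of E13.

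The genes around the channels were read from lists chosen with earlier results of these data known. Of all probe sets tested, 1.93% were called higher at E18 against E13 and 5.76% at Wk4 against E18. In recombined tissue 1.67% were called lower than at E18. Of 17 genes of vasopressin cAMP signalling tested, limma called 0 at E18 against E13. By adjusted p alone 1 of the 17 passed there, against 4466 of 22599 probe sets. The median difference of the 17 was 0.09. At Wk4 against E18 the prostaglandin E2 receptor gene Ptger3, whose product opposes vasopressin in the tubule, rose by 2.05 ± 0.24, and Prkar2b, a regulatory subunit of protein kinase A, fell by 1.78 ± 0.19. The list's median was -0.29 there. Adcy6, the adenylyl cyclase on which V2 signalling in principal cells mainly rests, had differences of 0.93 ± 0.21 and -0.29 ± 0.21 at the 2 steps, neither called.

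Of 19 genes of Aqp2 vesicle trafficking tested, 3 rose at E18 against E13, with a median of 0.42. These were Ezr (2.91 ± 0.12), which links membrane proteins to actin, Mal (2.49 ± 0.20), an apical sorting protein, and Cav1 (2.16 ± 0.25), the main protein of caveolae. At Wk4 against E18 the call was Mal (2.06 ± 0.20), 1 of 19, with 2 called without E18 replicate 4 or without Wk4 replicate 1. In recombined tissue Mal was lower than at E18 by -3.31 ± 0.22, with 59.6 and 268 against 3254 to 5004. Ezr and Cav1 were not called lower there. Ezr was above E13 by 2.20 ± 0.14, and Cav1 had 31141 and 13043 in recombined tissue, above E13 by 2.96 ± 0.29.

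Of 9 transcription factors listed for principal cells and the ureteric lineage and tested, 4 rose at E18 against E13, with a median of 1.55. Whole tissue does not show whether they were expressed in that lineage or in the nephrons. Tfcp2l1, which is needed for collecting duct cell fates in mouse, rose by 3.29 ± 0.23, Pax8 by 2.56 ± 0.28, Lhx1 by 1.89 ± 0.32 and Elf5 by 1.79 ± 0.22. At Wk4 against E18, 2 of the 9 fell, Lhx1 (-1.68 ± 0.32) and Emx2 (-1.66 ± 0.14), or 1 of the 9 without Wk4 replicate 1. Of 22599 probe sets, 2529 were called either way there, 51.5% of them higher. In the test of the first step minus the second, 7 of the 9 were called higher, where 6.16% of probe sets were. That test is signed, so a rise followed by a fall scores high whatever the size of the fall. The list's median was -1.08 at the second step, and Emx2 had 1.55 and then -1.66. These calls therefore do not show a larger change up to E18. In recombined tissue 5 of the 9 were lower than at E18, led by Tfcp2l1 (-2.48 ± 0.26) and Pax8 (-2.17 ± 0.31), or 3 without recombined replicate 1.

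Of 14 principal cell and collecting duct markers, 9 rose at E18 against E13 (median 1.86) and 6 at Wk4 against E18 (median 1.26). They do not include the aquaporins or Avpr2 and share Mal, Tfcp2l1, Elf5 and Gata3 with the lists above. Whole tissue does not show in which tubule segment these genes were expressed. Changes of the markers therefore cannot be assigned to the collecting duct alone. Their summed signal was 16518 to 17857 at E13, 56798 to 62611 at E18 and 181717 to 195729 at Wk4. In recombined tissue it was 37997 and 41437, most of it from Hsd11b2. Without that gene the sum was 8977 and 15252 in recombined tissue, against 11451 to 13100 at E13 and 52585 to 59016 at E18. There 7 of the 14 were lower than at E18 (median -1.72), led by Mal, Calb1 (-2.68 ± 0.24), Cdh16 (-2.54 ± 0.21) and Tfcp2l1. Hsd11b2, the enzyme that keeps cortisol and corticosterone off the mineralocorticoid receptor in these cells, went the other way. It had 29019.8 and 26184.5 in recombined tissue, against 3595 to 5108 at E18, a difference of 2.69 ± 0.16 (limma adjusted p = 4.19e-08). Aqp2, in the same arrays, was at 81.8 and 73.4.

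Of the other aquaporin genes measured, Aqp5, Aqp9 and Mip did not pass the filter, Aqp8 and Aqp12a were not called at either step, and Aqp11, a channel of intracellular membranes, rose at Wk4. Aqp11 had 5631, 6975 and 6334 at Wk4, against 239 to 327 at E18, a difference of 3.56 ± 0.19 (limma adjusted p = 1.37e-09). Of 7 genes of urea and osmolyte transport tested, the myo-inositol transporter gene Slc5a3 rose by 2.60 ± 0.14 at Wk4 against E18, the 1 call there. Of 5 genes of glycerol handling tested, which bear on Aqp3 and Aqp7, 3 rose at Wk4 against E18, Gk (3.02 ± 0.13), Gpd1 (2.73 ± 0.16) and Pnpla2 (2.33 ± 0.24). Gpd1 had already risen by 2.40 ± 0.16 at E18 against E13, and was the 1 gene of the 5 called there. Without E13 replicate 2 or without E18 replicate 2, 2 of the 5 were called.

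**Figure D4:**
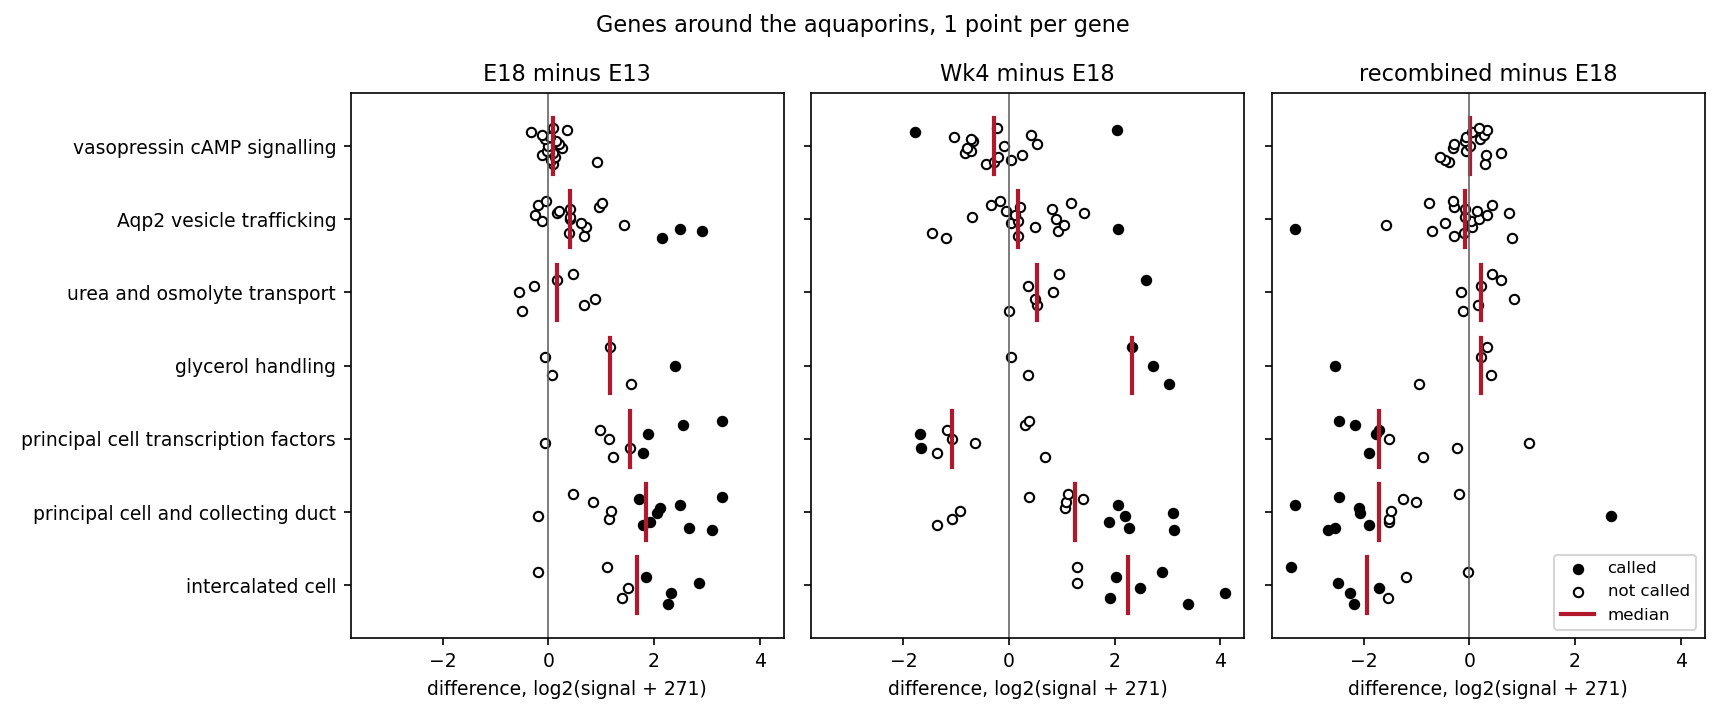
Differences on the log2(signal + 271) scale of the genes of 7 lists around the aquaporins at E18 minus E13, Wk4 minus E18 and recombined minus E18, with 1 point per gene, filled where called, and the list median as a red line. Of the cAMP signalling genes only Ptger3 and Prkar2b are filled, at Wk4 minus E18, and the collecting duct and intercalated cell medians lie right of 0 at both stage steps and left of it in recombined tissue.

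The genes whose pattern over the 12 arrays was most like each channel were listed by Pearson's r of log2 values among 11807 named genes, as a description, since the 12 arrays make only 4 groups. For Aqp2 these were Myo6 (r = 0.990), Pdzk1, Hnf4a, Slc2a2 and Dpp4. For Aqp3 they were Smagp (r = 0.994), C5h1orf210, Stard10, Pdzk1 and Sema3g, and Aqp2 and Aqp3 correlated with each other at r = 0.973. Aqp4 had Agpat2 (r = 0.992), Gca, Slc16a10, Slc12a1 and Kctd6. Aqp1 was nearest to Cdhr5 (r = 0.996), Golt1a, Hlf, Abhd14a and Tex264, and Aqp7 to Cmbl (r = 0.997), Ttc36, Ust5r, Hgd and Slco1a6, with r = 0.984 between Aqp1 and Aqp7. Avpr2 had Tmc4 (r = 0.984), Mpst, Ldhb, Slc25a23 and Klf15. An r above 0.95 was reached by 56 genes with Aqp4, 131 with Aqp2, 166 with Avpr2, 189 with Aqp3, 452 with Aqp7 and 528 with Aqp1.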

How the data were processed

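Total RNA was labelled as biotinylated cRNA and hybridised to 12 arrays of 4 groups. The authors deposited 1 intensity value per probe set and array, on a linear scale, with GCOS as the tool per the submitters' processing notes. Which GCOS version and algorithm made them is not given in the sources used here. A mean trimmed by 2% at either end came to 2500.0 on every array, so arrays had been scaled to a common mean, which hides a change in total RNA per cell. Without detection calls, a low signal carries no bound.

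Of the 31042 probe sets, 20826 had 1 symbol in the platform annotation, 436 several and 9780 none, and 20758 symbols matched the current annotation by gene ID. The 57 control probe sets were left out, and no 2 arrays held identical values. Values were taken as log2(signal + 271), 271 being the 25th percentile of all values, so differences at low signal are drawn toward 0. The filter kept 22599 probe sets and removed 8443. All 12 arrays entered 1 limma 3.58.1 fit (R 4.3.3, lmFit and eBayes with an intensity trend, 4 group means, 8 residual degrees of freedom), two-sided. Simulated arrays with known changes served to test the steps beforehand. The number of arrays limits the precision.

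Named were all 7 members, the 5 genes most correlated with each, and genes of the lists. For most lists these were up to 4 called genes by size of change. Some list genes, among them Adcy6, Atp6v0a4 and Cidec, were named outside this rule. Members and lists were chosen with earlier results of these data known. Marker sums were also taken over lists not named in the report. Alternatives covered the pseudocount, normalization, the filter, each array left out, the replicate number as a block, averaging over probe sets, the call rule and the embryonic array sets.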

Additional observations from a re-analysis of the deposited data

Results flagged for a closer look

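Among the 4 E18 arrays, the Aqp2 signal of replicate 2 (1619.7) stood far below the others (6619.7 to 8106). Its gap to the nearest array on the log2(signal + 271) scale was 0.869 of the whole range, above Dixon's 95% critical value for 4 samples. Chance flags about 1 in 20 groups, and all 11 probe sets of the 7 genes were examined in this way. This was the only flag among them. Aqp7 was also lowest on this array, at 61.6% of the mean of the other 3, within a range of low signals (396 against 563 to 735). Aqp3, Aqp4 and Avpr2 stood at 95.4%, 145% and 161% of the mean of the other 3 arrays. Of 14 collecting duct markers, 3 were lowest and 6 highest on this array.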

How the results depend on the processing

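Of 1026 values of the 7 comparisons recomputed per gene and setting, 1002 kept their sign and their side of the call, 7 turned sign, 7 gained a call and 10 lost one. The number of aquaporin and Avpr2 genes called was within 1.5 times the reported one in all settings except that at E18 against E13 it was 5 by adjusted p alone, with no fold required, against 3. The values that turned sign were uncalled ones. Aqp7 in recombined tissue against E13 was -0.088 with quantile normalization and -0.126 with median centring, and -0.37 to 0.51 with 1 array left out. Aqp2 in the same comparison was -0.048 with median centring, and Aqp4 was -0.018 with the mean of its probe sets. Against E18, leaving out 1 array gave -0.68 to 0.38 for Aqp1 and -0.55 to 0.33 for Aqp7. With 4 times the pseudocount Aqp3 at Wk4 against E18 (1.56), Avpr2 at Wk4 against E13 (1.36) and in recombined tissue against Wk4 (-1.18), and Aqp4 in the test of the 2 steps (1.17) were no longer called; a larger pseudocount shrinks differences of dim signals by construction. Over all probe sets, the calls at E18 against E13 numbered 1038 with no pseudocount and 188 with 4 times the pseudocount, against 529. With 4 times the pseudocount they numbered 1420 at Wk4 against E18 (2529 as reported), 2300 at Wk4 against E13 (4036), and 495, 418 and 1876 in recombined tissue against E13, E18 and Wk4 (1098, 995 and 3435), and 1253 in the test of the 2 steps (2381). With no pseudocount they were 3990 at Wk4 against E18, and 1733 and 1594 in recombined tissue against E13 and E18. Higher calls in recombined tissue against E13 were 68.9% of all calls with median centring and 81.2% without it, and the cause was not tested. Same-numbered arrays of different groups did not deviate together (r from -0.17 to 0.31 over 15 pairs, 1 of them above 0.1), so the numbers share no source that shows; with the replicate block the genes called numbered 3 at E18 against E13, 4 at Wk4 against E18 and 3 in recombined tissue against E18, the same as without it. The embryonic array sets came from the residuals, after the data were seen. Limits of these values include the 2 arrays of recombined tissue, which differ by more than 2-fold in Aqp1, Aqp7 and Avpr2, and the lack of detection calls for low signals.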

Other observations

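On Wk4 replicate 2, Aqp4 had 8172, against 4279 and 4574 on the other Wk4 arrays. Ptger3, chosen after its values were seen, was likewise highest there, with 6476 against 3316 and 3431.5. Aqp2 differed far less between these arrays, 34045 against 30929.8 and 30065.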
